A study of Mus musculus with 4 samples.

Results

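T cells without transcripts of immature thymocytes were found as a minor population among cells sorted as lung macrophages: 229 of 22258 kept cells, or 1.03%. A barcode was kept from 1000 unique molecular identifiers (UMIs, each counting 1 captured RNA molecule) and 500 genes upward if mitochondrial genes gave no more than 10% of its UMIs. T cells were chosen by their measured UMIs. They had at least 4 UMIs in all of the genes for the T cell receptor chains and the CD3 subunits (Cd3d, Cd3e, Cd3g, Trac, Trbc1 and Trbc2). They also had under 5 UMIs of C1qa, C1qb and C1qc, under 0.4% of their UMIs from the alveolar macrophage genes Chil3, Ear1, Ear2, Fabp1, Lpl and Plet1, and no UMI of the thymocyte genes Rag1, Rag2, Ptcra, Dntt and Arpp21. Levels of these genes therefore describe the choice of cells and support nothing.

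Lungs came from female FVB mice of 2 genotypes, wildtype and MMTV-HER2, in which the mouse mammary tumour virus promoter drives the HER2 oncogene in mammary epithelium. Both genotypes were taken at 16 weeks, the stage of early lesions, and at 32 weeks, the late stage, for which the labels' protocol describes females with palpable tumours. Tissue was digested with collagenase, sorted by flow cytometry for macrophages and run on a 10x Genomics 3′ single-cell assay. Each of the 4 groups was 1 library, and the number of mice behind a library and the sort gate are not given in the sources used here, so no difference between groups has a replicate check. Intervals below are exact 95% intervals (Clopper-Pearson for shares, Poisson for levels, conditional binomial for ratios) and cover counting error only. Where 4 values follow each other, they stand in the order wildtype 16 weeks, MMTV-HER2 16 weeks, wildtype 32 weeks and MMTV-HER2 32 weeks. The libraries held 5449, 5126, 5129 and 6554 kept cells, and shared 1 to 13 kept barcodes per pair, none of them a T cell.

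A T cell recognises antigen through a receptor made of an alpha and a beta chain, or of a gamma and a delta chain, and signals through the CD3 subunits and the kinase Lck. Precursors rearrange the receptor genes in the thymus with the Rag recombinase, and naive cells then circulate through blood and lymph nodes under the factors Tcf7 and Lef1. Activated and memory cells enter tissues such as the lung, where CD8 cells are known for killing target cells and CD4 cells for helping or restraining other immune cells.

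Of the markers of the label, Cd3d, Cd3e, Trac and Trbc2 were used by the rule, so their detection only describes the choice of cells. Cd3d was detected in 76.9%, Cd3e in 68.1%, Trac, the alpha chain constant region, in 69.9%, Trbc2 in 88.6%, Tcf7 in 61.1% and Lck in 54.6% of the 229 cells. Tcf7 and Lck, which the rule did not use, were detected in at most 0.478% and 0.333% of alveolar macrophages in any library, at median depths of 3731 to 4750.5 UMIs per macrophage against 2374.5 to 4297 per T cell. The T cell receptor and CD3 genes together had a median of 22, 14, 9.5 and 10.5 UMIs per T cell. Just inside the limit lay 15 cells with 4 such UMIs, and just outside it 14 cells with 3. Cells with 5 or more C1q UMIs that otherwise met the rule numbered 92, and 3 T cells had 3 or 4 C1q UMIs.

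Part of the 229 cells carried transcripts of a second cell type. Endothelial markers (Cdh5, Pecam1, Cldn5, Kdr, Tmem100 and Calcrl) reached 2 or more UMIs in 13, 17, 9 and 9 T cells. Those 48 cells had median depths of 7712, 8639, 6504 and 12554 UMIs, against 2954, 2517.5, 2039 and 3385 UMIs in the other T cells of the same libraries, and held 33.8%, 57.7%, 42.5% and 62.3% of all T cell UMIs. Kept endothelial cells with fewer than 4 receptor and CD3 UMIs had median depths of 6910, 6479, 4189 and 6679 UMIs. Seen from the other side, 9, 12, 9 and 8 of the 67, 101, 99 and 83 kept cells with at least 5 endothelial UMIs also had 4 or more receptor and CD3 UMIs. Whether these barcodes held more than 1 cell was not tested. Results are therefore given for all 229 T cells and for a reduced set of 176 (77, 43, 37 and 19) with under 2 UMIs of endothelial, B cell, epithelial, fibroblast, neutrophil and dendritic cell markers, a set chosen after seeing the data. The 53 cells left out held 37.9%, 60.2%, 48.9% and 62.3% of the UMIs.

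**Figure D1:**
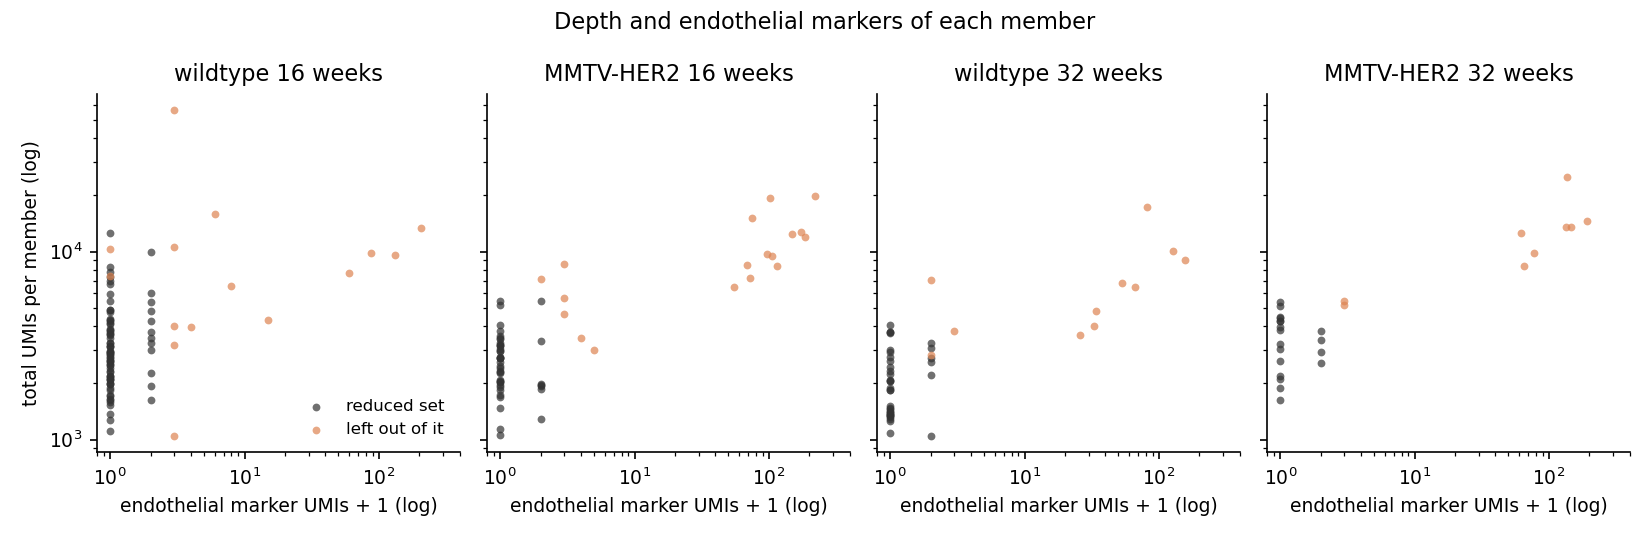
Total UMIs of each T cell (vertical) against its endothelial marker UMIs plus 1 (horizontal), both on logarithmic axes, 1 panel per library; colours mark the reduced set and the cells left out of it. T cells with 2 or more endothelial UMIs (13, 17, 9 and 9) lie to the right, at median depths of 6504 to 12554 UMIs, while the others have medians of 2039 to 3385.

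Natural killer (NK) cells share many transcripts with T cells, so their markers were counted as well. Ncr1, Klrb1c, Klre1 and Klra8, surface receptors of NK cells, together reached 2 or more UMIs in 3, 2, 2 and 6 T cells, a count added after seeing the data. No UMI of a CD3 gene was found in 5, 3, 4 and 5 T cells, of which 3, 1, 2 and 5 were among the NK-marked ones. These cells entered through UMIs of the receptor chain genes alone.

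The beta chain of the receptor has either of a pair of constant regions, Trbc1 and Trbc2, which lie next to each other on chromosome 6 (GRCm38, the build of the mm10 mapping) and are shown here because parts of their coding sequence are nearly alike. Their first exons differ at 1 base. Exon 3, at chr6:41539229-41539335 in Trbc1 and chr6:41547772-41547878 in Trbc2, both on the plus strand, differs at 15 of 107 coding bases, given in capitals below in the GENCODE M21 transcripts.
Trbc1: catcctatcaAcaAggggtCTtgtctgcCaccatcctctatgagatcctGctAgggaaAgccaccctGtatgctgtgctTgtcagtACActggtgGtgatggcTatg
Trbc2: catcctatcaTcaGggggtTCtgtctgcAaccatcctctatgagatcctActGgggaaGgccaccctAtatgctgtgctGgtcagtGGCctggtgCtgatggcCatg
The exons are identical at 86.0% of their bases. The last 300 bases of each transcript, where reads of a 3′ assay mostly fall, matched no other gene over 90 or more bases at 95% identity, so doubt about the counts concerns reads from the coding exons.

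A mature T cell is known to express 1 functional beta chain, and the counts per cell were less clear-cut than that. Trbc1 had 571, 146, 131 and 103 UMIs and Trbc2 840, 347, 120 and 95 in the T cells of the 4 libraries. Trbc1 thus made up 40.5%, 29.6%, 52.2% and 52.0% of the pair. Among the 157 T cells with at least 5 UMIs of the pair, 46 had Trbc2 alone, 12 had Trbc1 alone and 92 had between 10% and 90% Trbc1.

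T cells made up a smaller share of the kept cells in MMTV-HER2 than in wildtype lungs at each age, and a smaller share at 32 than at 16 weeks in each genotype. The counts were 92, 61, 48 and 28, equal to 1.69% (interval 1.36 to 2.07%), 1.19% (0.911 to 1.53%), 0.936% (0.691 to 1.24%) and 0.427% (0.284 to 0.617%) of kept cells. The interval of MMTV-HER2 at 32 weeks lay below those of the other 3 libraries, while those of neighbouring libraries otherwise overlapped. In the reduced set the shares were 1.41%, 0.839%, 0.721% and 0.290%, in the same order. Without cells that had 3 or more UMIs of cell cycle genes the order at 16 weeks turned, with 0.606% in wildtype and 0.644% in MMTV-HER2. Since the libraries were sorted for macrophages, the share depends on the gate and on the number of macrophages, and cannot be told apart from a difference in sorting between single libraries.

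**Figure D2:**
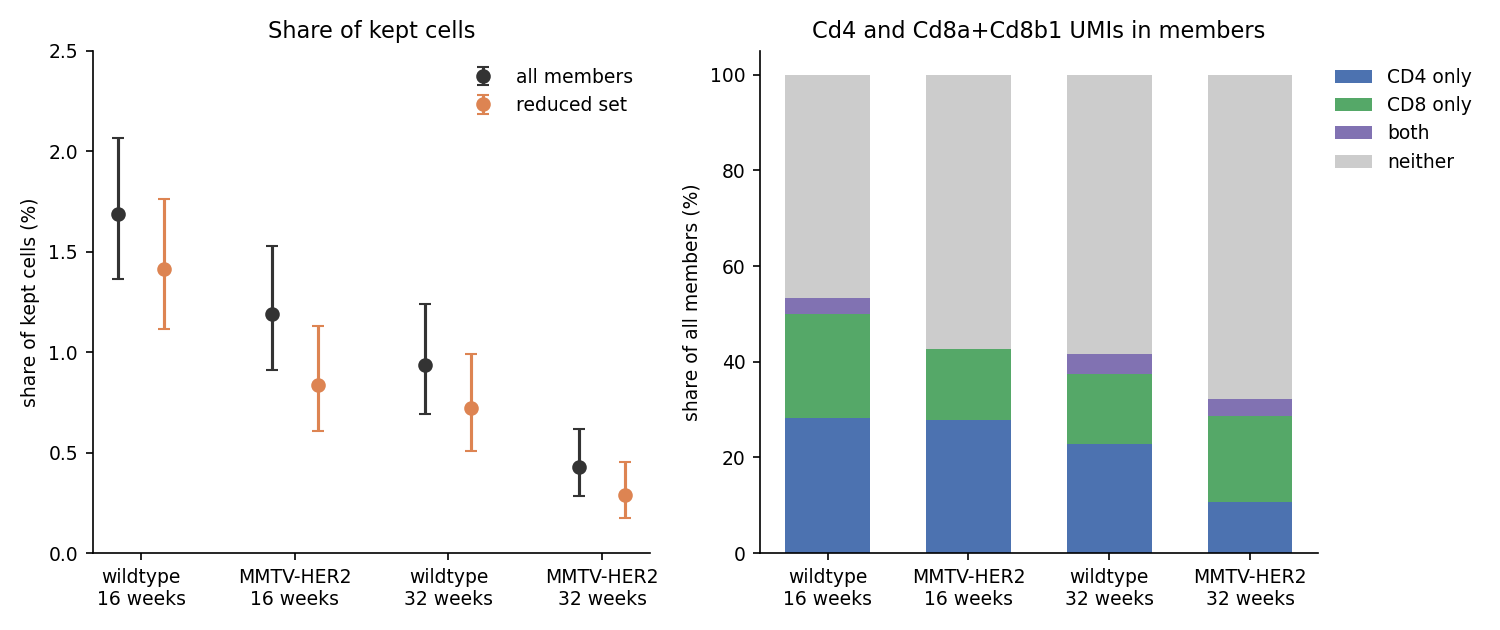
T cells as a percentage of kept cells, with exact 95% intervals, for all T cells and the reduced set, beside the makeup of T cells by Cd4 and Cd8 UMIs in each library. The share is 1.69% in wildtype at 16 weeks and 0.427% in MMTV-HER2 at 32 weeks, and cells with neither Cd4 nor Cd8 UMIs are the most frequent class in each library.

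Most T cells had no UMI of either coreceptor at this depth. CD4 cells, with a Cd4 UMI and none of Cd8a or Cd8b1, numbered 26, 17, 11 and 3, and CD8 cells, with the reverse, 20, 9, 7 and 5. Both kinds of UMI were found in 6 of 229 cells (2.62%), and neither in 125 (54.6%, interval 47.9 to 61.2%). A gamma or delta constant region UMI (Trdc, Tcrg-C1, Tcrg-C2 or Tcrg-C4) was present in 17 of these 125 cells. Alveolar macrophages, which should lack Cd8, had a CD8 UMI in 0.0697% to 0.416% of cells, so the T cell shares were far above that background.

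The CD8 share differed between libraries by less than its counting error. It was 21.7% (13.8 to 31.6%), 14.8% (6.98 to 26.2%), 14.6% (6.07 to 27.8%) and 17.9% (6.06 to 36.9%). After each cell was thinned to 1000 UMIs, which removes the difference in depth, CD8 cells numbered 15, 4, 5 and 2, or 16.3%, 6.56%, 10.4% and 7.14% of T cells. Foxp3, the factor that defines regulatory T cells, had a UMI in 4, 3, 4 and 2 T cells, and Il17a, a cytokine of type 17 cells, in none, which allows up to 3 UMIs per library.

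Genes known from developing or recently formed T cells, other than those of the rule, were most abundant in the wildtype library at 16 weeks. Satb1, a chromatin organiser of thymocytes that naive T cells also express (chr17:51736187-51833290), had 400, 72, 36 and 28 UMIs, or 921, 250, 233 and 162 counts per 1000000 UMIs (CPM). In the reduced set it had 371, 47, 30 and 14 UMIs, at 1377 CPM (interval 1240 to 1524), 410 CPM (301 to 545), 379 CPM (256 to 542) and 215 CPM (117 to 360). The wildtype library at 16 weeks stood above the other 3, whose intervals overlapped each other.

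Ccr9, the chemokine receptor that guides cells to thymus and gut (chr9:123678439-123784330), showed a steeper pattern. It had 71, 3, 2 and 1 UMIs in all T cells, and 69, 3, 1 and 1 in the reduced set, where 24, 2, 1 and 1 cells held them. At 1000 UMIs per cell, 13, 1, 1 and 0 cells of the reduced set had a Ccr9 UMI. Alveolar macrophages had one in 0.187%, 0.0452%, 0.0236% and 0.0174% of cells, a background that was also highest in wildtype at 16 weeks.

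Itm2a, a membrane protein linked to thymocyte selection (chrX:107397099-107403376), had 73, 2, 1 and 2 UMIs in the reduced set, in 23, 2, 1 and 1 cells, and 3 cells held 56.2% of those at 16 weeks in wildtype. Tnfrsf4, the costimulatory receptor OX40 (chr4:156013843-156016612), is in the list of regulatory T cell genes and not in the list of thymocyte-type genes summed below. It had 83, 2, 2 and 0 UMIs in the reduced set, in 14, 2, 1 and 0 cells, with 68.7% in 3 cells. A few cells thus carried much of both genes. Themis, a signalling protein of thymocyte selection, was more evenly spread, at 160, 122, 75.9 and 46.0 CPM, and so was the factor Tox, at 167, 113, 63.2 and 61.3 CPM.

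The whole list of 13 such genes had 2582 CPM (interval 2394 to 2782), 767 CPM (615 to 945), 734 CPM (557 to 948) and 690 CPM (503 to 923) in the reduced set. At 1000 UMIs per cell, 42 of 77, 12 of 43, 6 of 37 and 2 of 19 cells had 2 or more of its UMIs, against 19, 16, 30 and 29 of 1000 macrophages. Satb1 is also in the list for naive cells and Cd8b1 also marks CD8 cells. The wildtype library at 16 weeks was the one that held T-lineage cells with UMIs of the excluded thymocyte genes, 57 cells against 0 in each of the other 3.

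**Figure D3:**
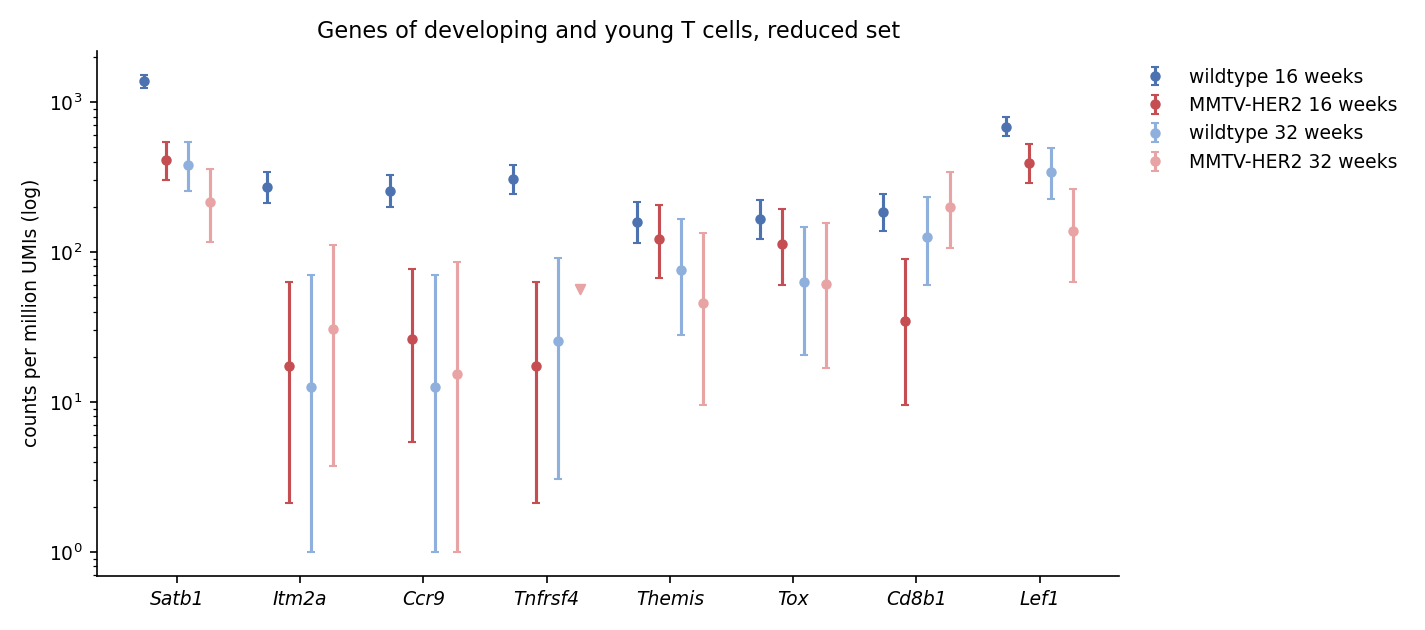
Levels of genes of young T cells, and of Tnfrsf4 from the regulatory list, in the reduced set by library. Values are in CPM on a logarithmic axis, with exact Poisson 95% intervals. Whiskers stop at 1 CPM and a triangle marks the upper bound of a count of 0. Satb1, Ccr9, Itm2a and Tnfrsf4 are highest in wildtype at 16 weeks, at 1377, 256, 271 and 308 CPM.

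T cells of that library differed from its 57 cells with thymocyte genes at many genes outside the rule. A gene was called where the summed CPM of the groups differed at least 2-fold and the interval of the ratio excluded 1, among genes with at least 100 CPM in their mean. The T cells were higher at 78 of 1494 genes (5.22%) and lower at 193 (12.9%). With marked cells left out of both groups (77 against 50 cells), they were higher at 107 of 1507 (7.1%) and lower at 301 (20%). These are calls between cells of 1 library with no replicates, and the groups were split by correlated genes.

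Genes of mature, circulating cells were among those higher in the T cells. In the reduced set, Il7r, the interleukin-7 receptor, had 173 UMIs in 39 of the 77 T cells and 3 in 2 of the 50 cells with thymocyte genes, a log2 difference of 5.43 (interval 3.86 to 7.72). Klf2, a factor for leaving the thymus, had 74 against 6 UMIs (log2 3.20) and Ccr7, the lymph node homing receptor, 53 against 5 (log2 2.99). The class I genes H2-K1 and H2-D1 and their partner B2m were higher by 2.07, 2.22 and 2.65 on the log2 scale; near-identical copies of H2-D1 leave its count uncertain. Cd5, a negative regulator of receptor signalling, was higher by 2.73 and Cd2, an adhesion receptor, by 2.19. Both are in a list of 19 genes of receptor signalling and T cell identity, which was divided. Of its 16 tested genes 4 were higher (Fyn, Cd2, Cd5 and Cd6) and 3 lower (Lat, Thy1 and Sh2d1a). Of 8 tested genes of the naive list 4 were higher (Ccr7, Lef1, Klf2 and Il7r) and 1 lower (Tcf7). Ccl5, a chemokine of effector cells, had 370 against 0 UMIs, and Nkg7, a protein of cytotoxic granules, 104 against 0, at least 92.2-fold and 25.9-fold higher against a floor of 3 UMIs.

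Cell cycle genes were lower in the T cells, and genes of thymocytes were divided. Of a list of 24 cell cycle genes, 16 could be tested in the reduced set and all 16 were lower. Of the 13 thymocyte-type genes outside the rule 9 could be tested, of which 5 were lower and 2 higher. Mki67, a protein of dividing cells, had 1 against 217 UMIs (log2 -8.18, interval -13.49 to -5.69) and Hmgb2, a chromatin protein of cycling cells, 57 against 902 (log2 -4.40). Endou, an RNA-cutting enzyme of thymocytes, had 0 UMIs in the 77 T cells and 90 in the 50 others, at least 40.1-fold lower. Tcf7 (log2 -1.56), Themis (log2 -1.68), Cd8b1 (log2 -2.72) and the factor Myb (log2 -2.59) were lower as well. Satb1, at 1377 against 1653 CPM, and Ccr9, at 256 against 472 CPM, differed by less than the 2-fold limit. Itm2a, at 271 against 24.8 CPM, and Tox, at 167 against 49.6 CPM, were higher in the T cells without the rule's thymocyte genes.

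At least 2 UMIs of a list of 16 genes of naive and circulating cells were present in 90 of 92, 60 of 61, 45 of 48 and 28 of 28 T cells. They were also present in 57 of 57 cells with thymocyte genes and in 53.2%, 44.7%, 60.8% and 52.5% of alveolar macrophages, so at full depth the count separates these cells poorly. At 1000 UMIs per cell the shares were 83.7%, 83.6%, 75.0% and 67.9% of T cells against 6.1%, 7.4%, 9.9% and 7.1% of macrophages, and 89.5% of the cells with thymocyte genes. The list summed to 4727 CPM (interval 4471 to 4994), 3907 CPM (3553 to 4286), 4364 CPM (3916 to 4850) and 2423 CPM (2060 to 2831) in the reduced set. Lef1 had 185, 45, 27 and 9 UMIs there, or 686, 392, 341 and 138 CPM, and was lowest in MMTV-HER2 at 32 weeks. Ccr7 had 197, 183, 215 and 30.7 CPM, the last from 2 UMIs. Il7r, by contrast, stayed between 642 and 1176 CPM.

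Much of the cytotoxic UMIs lay in few cells, with low counts in others. In the reduced set, 3 cells of each library held 47.8%, 76.9%, 78.1% and 68.8% of the UMIs of 22 cytotoxic genes. At 1000 UMIs per cell, 14 of 77, 10 of 43, 13 of 37 and 10 of 19 cells had 2 or more. The macrophage shares were 9.9%, 9.7%, 12.8% and 8.5%. The list of 22 cytotoxic genes summed to 2913 CPM (interval 2712 to 3124), 3854 CPM (3503 to 4231), 6464 CPM (5916 to 7050) and 9583 CPM (8846 to 10364) in the reduced set, and was highest in MMTV-HER2 at 32 weeks. With the NK-marked cells left out as well, it summed to 1699, 2690, 2321 and 2817 CPM. Over all T cells it was 2366, 2081, 3825 and 5438 CPM, and 1611, 1591, 1692 and 1220 CPM without NK-marked cells, so the order of the libraries changed. UMIs of the list numbered 10 or more in 14, 6, 7 and 9 T cells, of which 3, 1, 2 and 6 were NK-marked.

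Ccl5 made up much of that list. It had 519, 329, 363 and 547 UMIs in all T cells, found in 12, 8, 10 and 9 of them, and 3 cells held 57.3% to 91.4% of its UMIs in the reduced set of each library. Gzma, a serine protease of killer cells, had 112, 38, 59 and 47 UMIs in 4, 1, 2 and 3 cells of the reduced set. Nkg7 was found in 20, 8, 11 and 10 cells, a wider spread. Ifng, the cytokine interferon gamma, had 1, 0, 2 and 0 UMIs.

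Genes of tissue residence and memory were lowest in wildtype at 16 weeks. The list of 14 genes summed to 2022 CPM (interval 1856 to 2199), 3846 CPM (3495 to 4222), 3909 CPM (3485 to 4370) and 6700 CPM (6087 to 7359) in the reduced set, and to 1856, 3286, 3908 and 7572 CPM without the NK-marked cells. Over all T cells the sums were closer, at 2555, 2997, 3172 and 4831 CPM. S100a6, a calcium-binding protein, had 345, 750, 772 and 1993 CPM, with 54.1% to 83.1% of its UMIs in 3 cells. Ahnak, a large membrane scaffold of antigen-experienced cells, had 48, 59, 64 and 69 UMIs in 22, 15, 19 and 14 cells, or 178, 514, 810 and 1058 CPM. Cxcr6, a chemokine receptor of resident T cells, had 85.3, 139, 101 and 291 CPM, and Cxcr3, a receptor for interferon-induced chemokines, 18.6, 43.6, 101 and 184 CPM. Alveolar macrophages express part of this list at 3006 to 3568 CPM, with 5.14% to 13.9% of them holding an S100a6 UMI.

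**Figure D4:**
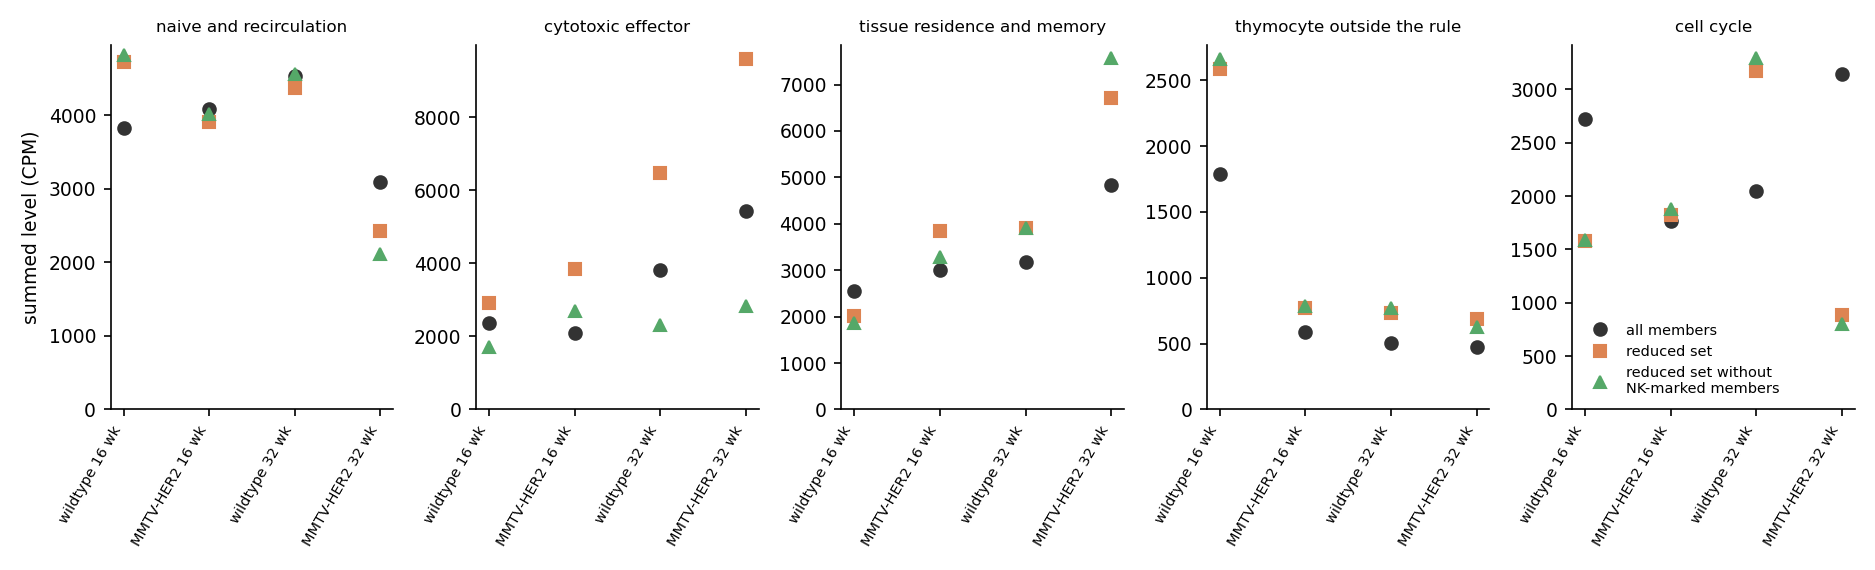
Summed CPM of 5 gene lists by library, 1 panel per list, for all T cells (all members), the reduced set and the reduced set without NK-marked cells, with no error bars; each point is 1 library. The cytotoxic list reaches 9583 CPM in MMTV-HER2 at 32 weeks in the reduced set and 2817 CPM once NK-marked cells are left out, while the tissue residence list is 6700 and 7572 CPM.

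CD8 and CD4 T cells were compared within and across the libraries. Over all 4, 41 CD8 cells were higher than 57 CD4 cells at 28 of 1429 genes (1.96%) and lower at 52 (3.64%). In the reduced set, where 3 libraries held both kinds in sufficient number (26 against 43 cells), the calls were 39 of 1242 (3.14%) and 45 (3.62%). The coreceptor genes themselves split the cells and are no finding.

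Of the list of 22 cytotoxic genes 4 could be tested between CD8 and CD4 cells, and 3 were higher in CD8 cells, Ccl5, Nkg7 and Ctsw. Ccl5 had 493 UMIs in 12 CD8 cells and 24 in 3 CD4 cells (log2 5.12, interval 4.53 to 5.78), and was higher in CD8 cells in 4 of 4 libraries. Nkg7 had 78 against 13 UMIs, in 22 and 3 cells (log2 3.35, interval 2.49 to 4.32), and Ctsw, a cathepsin of cytotoxic cells, 44 against 8 (log2 3.22), both higher in 4 of 4. Runx3, the factor of the CD8 lineage, was higher by 1.41 on the log2 scale, also in 4 of 4. In CD4 cells, Ikzf2, the factor Helios of regulatory cells, had 97 UMIs against 18 in CD8 cells (log2 -1.67, interval -2.48 to -0.93) and was higher than in CD8 cells in 4 of 4 libraries. Tnfrsf4 had 79 UMIs in 13 CD4 cells and 0 in CD8 cells, at least 15.6-fold lower in the latter. Itm2a followed the CD4 cells of the reduced set (39 against 4 UMIs), and Ccr9 was higher in CD8 cells, at 30 against 19 UMIs (log2 1.38). UMIs of Tnfrsf4, Itm2a and Ccr9 lay mostly in wildtype at 16 weeks. The reduced set of that library had 83, 73 and 69 of them, against at most 3 per gene in any other library. Their contrasts therefore rest mainly on that library, and no count of libraries is given for them.

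MMTV-HER2 over wildtype at 16 weeks addressed what differs at the stage of early lesions. Over all T cells, 229 of 1401 genes (16.3%) were called, 170 higher (12.1%) and 59 lower (4.21%). By the mean of each cell's own CPM, which gives deep cells no extra weight, 75 were higher and 58 lower. The higher genes named by rank were mostly ones known from endothelial cells: Clu (log2 4.08), Cxcl12 (3.61), Col4a1 (3.24), Scn7a (3.07), Thbd, Cav1 (2.77) and Clec1a (2.91), with the signalling phosphatase Dusp3 (3.25). All 6 endothelial markers were called higher, at 4964 against 1226 CPM in sum, and fell to 61.0 and 44.5 CPM in the reduced set. Of the 229 called genes, 64 could be tested in the reduced set, and 22 were called there in the same direction. Another 42 had 0 UMIs there in both libraries. The MHC class II genes H2-Ab1 (log2 -2.23) and H2-Aa (log2 -1.99), in 10 and 13 wildtype cells, and the lipid carrier Apoe (log2 -2.45) were lower over all T cells. H2-Ab1 was at 0.10 in the reduced set, from 5 against 11 UMIs, and at stricter macrophage limits H2-Ab1 was at 0.65 and H2-Aa at 0.47.

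In the reduced set 92 of 1211 genes (7.6%) were called in that comparison, 38 higher (3.14%) and 54 lower (4.46%). Leaving mitochondrial and ribosomal protein genes and Gm42418 out of the total shifts each log2 ratio by 0.11. It also raises every other CPM against the limit of 100 CPM, here and wherever this alternative is given. With a set of tested genes that therefore differs, 95 were higher and 69 lower. Tnfrsf4 (log2 -4.14, interval -7.21 to -2.24), Itm2a (-3.96, -7.03 to -2.05), Ccr9 (-3.29, -5.60 to -1.68) and Satb1 (-1.75, -2.22 to -1.31) led the lower genes. In alveolar macrophages of the same libraries Ccr9 differed by -2.78 and Satb1 by -1.66, against -0.37 for Tnfrsf4. Free RNA was estimated at 3.57%, 0.83%, 2.07% and 2.58% by library. Its part in the T cell value of each gene is not given here. Of 13 thymocyte-type genes outside the rule, 6 could be tested, 0 were higher and 4 lower, with a median of -2.08 beside -0.09 for all genes. Among the higher genes were Slamf6, a receptor of less differentiated T cells (33 against 15 UMIs, log2 2.37), the factor Fli1 (26 against 10, log2 2.61), Dapl1, a transcript of naive cells (32 against 18, log2 2.06), and Ahnak (59 against 48, log2 1.53). Of the tissue residence list, 3 of 8 tested genes were higher, S100a4, S100a6 and Ahnak, with a median of 0.85; near-identical copies make S100a4 uncertain.

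At 32 weeks, the stage of palpable tumours, 156 of 1413 genes (11%) were called over all T cells, 93 higher (6.58%) and 63 lower (4.46%) in MMTV-HER2. The split was 88 higher and 90 lower by the mean of each cell's CPM, and 112 higher and 117 lower without mitochondrial and ribosomal protein genes in the total. Here the endothelial markers were not called (0 of 6, median 0.37), but 1 cell held neutrophil genes, and S100a8 and S100a9 were called higher. Sftpc, the surfactant gene of alveolar epithelium, was higher too (293 against 1 UMIs, log2 8.03), with epithelial markers at 1844 against 32.3 CPM. All 3 genes had 0 UMIs in the reduced set. The reduced set gave 126 calls of 1236 (10.2%), 65 higher (5.26%) and 61 lower (4.94%). Lgals3, a sugar-binding protein, was higher at 45 against 13 UMIs (log2 2.07, interval 1.15 to 3.08), as were S100a6 (130 against 61, log2 1.37) and Lgals1 (104 against 53, log2 1.25). At a limit of 5% mitochondrial UMIs S100a6 was at -0.022, and 3 cells held 83.1% of its UMIs in MMTV-HER2. Lower were Ets1, a T cell factor (25 against 114 UMIs, log2 -1.91, interval -2.60 to -1.28), and Tubb5, a tubulin (11 against 69, log2 -2.37). Cd4 had 1 against 15 UMIs (log2 -3.63, interval -9.03 to -0.93).

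By list, 3 of 10 tested naive genes were lower in MMTV-HER2 at 32 weeks in the reduced set (Ccr7, Lef1 and S1pr1, the receptor for leaving lymph nodes) and 0 higher, with a median of -0.80 beside 0.08 for all genes. Of the cytotoxic list 5 of 9 tested genes were higher (Nkg7, Klrd1, Klrk1, Id2 and Zeb2) and 0 lower, with a median of 1.04. NK markers moved with them, at 2239 against 1404 CPM, and 4 of 19 against 2 of 37 cells were NK-marked. Of the class I list, 3 of 7 tested genes were higher (H2-Q7, H2-T23 and the immunoproteasome subunit Psmb9), with copies of H2-T23 leaving its count uncertain. Of the 4 tested cell cycle genes 3 were lower, Mki67, Hmgb2 and Tubb5, with 74.1% of the list's UMIs in the wildtype library held by 3 cells. Over all T cells 3 of 6 tested genes of that list were higher instead (Top2a, Stmn1 and Dut) and 0 lower, with a median of 0.71. There the deepest MMTV-HER2 cell held 198 of the list's 545 UMIs.

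Age in wildtype lungs, 32 over 16 weeks, gave 273 calls of 1403 genes (19.5%) over all T cells, 163 higher (11.6%) and 110 lower (7.84%), or 96 higher and 110 lower by the mean of each cell's CPM. The endothelial markers were again called higher, 6 of 6, with a median of 1.49. Of the 273 called genes, 157 could be tested in the reduced set, and 96 were called there in the same direction. That set had 206 calls of 1271 (16.2%), 102 higher (8.03%) and 104 lower (8.18%), or 181 higher and 117 lower without mitochondrial and ribosomal protein genes in the total. Itm2a (73 UMIs at 16 weeks, 1 at 32; log2 -4.42, interval -9.74 to -1.90), Ccr9 (69 and 1; -4.34, -9.66 to -1.81), Tnfrsf4 (83 and 2; -3.61, -6.67 to -1.71) and Satb1 (371 and 30; -1.86) were lower, from the same 16-week library as in the comparison of genotypes. Ikzf2, Tnfrsf4 and Tnfrsf18, 3 of 4 tested genes of the regulatory list, were lower too.

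Ahnak (log2 2.18, interval 1.62 to 2.76), Maf, a factor of several helper subsets (27 against 17 UMIs, log2 2.44), Il18r1, a cytokine receptor (23 against 17, log2 2.21), and Ccl5 (329 against 370, log2 1.60) were higher at 32 weeks in wildtype. NK markers moved with Ccl5, at 1404 against 764 CPM, with 95.5% of their UMIs at 32 weeks in 3 cells. Ccl5 was at 0.81 without NK-marked cells and at 0.97 over all T cells, where it was not called. Gapdh, a glycolytic enzyme, was lower at 4 against 134 UMIs (log2 -3.30, interval -5.19 to -1.91), and 5 of 6 tested heat shock genes were lower (Hsp90aa1, Hsp90ab1, Hspe1, Hspd1 and Dnaja1), with a median of -1.31. Gapdh differed by -1.23 in the alveolar macrophages of these libraries, Hspe1 by -0.96 and the histone gene H3f3a by -0.83, against -2.83 and -2.06 for the latter pair in T cells. Gapdh and Hspe1 have near-identical copies, so both counts are uncertain. Macrophages of the 32-week library were thus lower in these genes too, and the part of the library in the T cell values was not tested.

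In MMTV-HER2 lungs, 32 over 16 weeks gave 65 calls of 1418 genes (4.58%) over all T cells, 34 higher (2.4%) and 31 lower (2.19%), and 102 of 1180 (8.64%) in the reduced set, 63 higher (5.34%) and 39 lower (3.31%). Over all T cells the higher genes included ones known from other cell types: S100a8 (111 against 0 UMIs), S100a9 (319 against 0), Sftpc (log2 8.93), Chil3 (log2 2.57), which the rule used, and Lyz2 (log2 1.97). Klrd1, an NK and effector cell receptor (24 against 8 UMIs, log2 2.40), Ccl5 (366 against 255, log2 1.34), Nkg7 (67 against 39, log2 1.59), Klrk1, an activating receptor (17 against 6, log2 2.32), and Il2rb, a receptor for interleukins 2 and 15 (20 against 9, log2 1.97), were higher in the reduced set. Without NK-marked cells Ccl5 was at -0.29 and Klrd1 at -0.93 on the log2 scale in the reduced set. S100a6 was also higher (130 against 86 UMIs, log2 1.41), and was at 0.25 at a limit of 5% mitochondrial UMIs. Dapl1 (1 against 32 UMIs, log2 -4.19, interval -9.53 to -1.60), Ms4a6b (9 against 65, log2 -2.04), Ifi27l2a, an interferon-induced gene (9 against 76, log2 -2.26), and Lef1 were lower.

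The residence list had 4 of 8 tested genes higher and 0 lower in that comparison (Cxcr6, Cxcr3, S100a6 and Ahnak), with a median of 0.90 beside 0.03 for all genes, while the naive list had 3 of 11 lower (Ccr7, Lef1 and Dapl1) and 0 higher, with a median of -0.89. This comparison and that of genotype at 32 weeks share the MMTV-HER2 library of 19 cells.

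**Figure D5:**
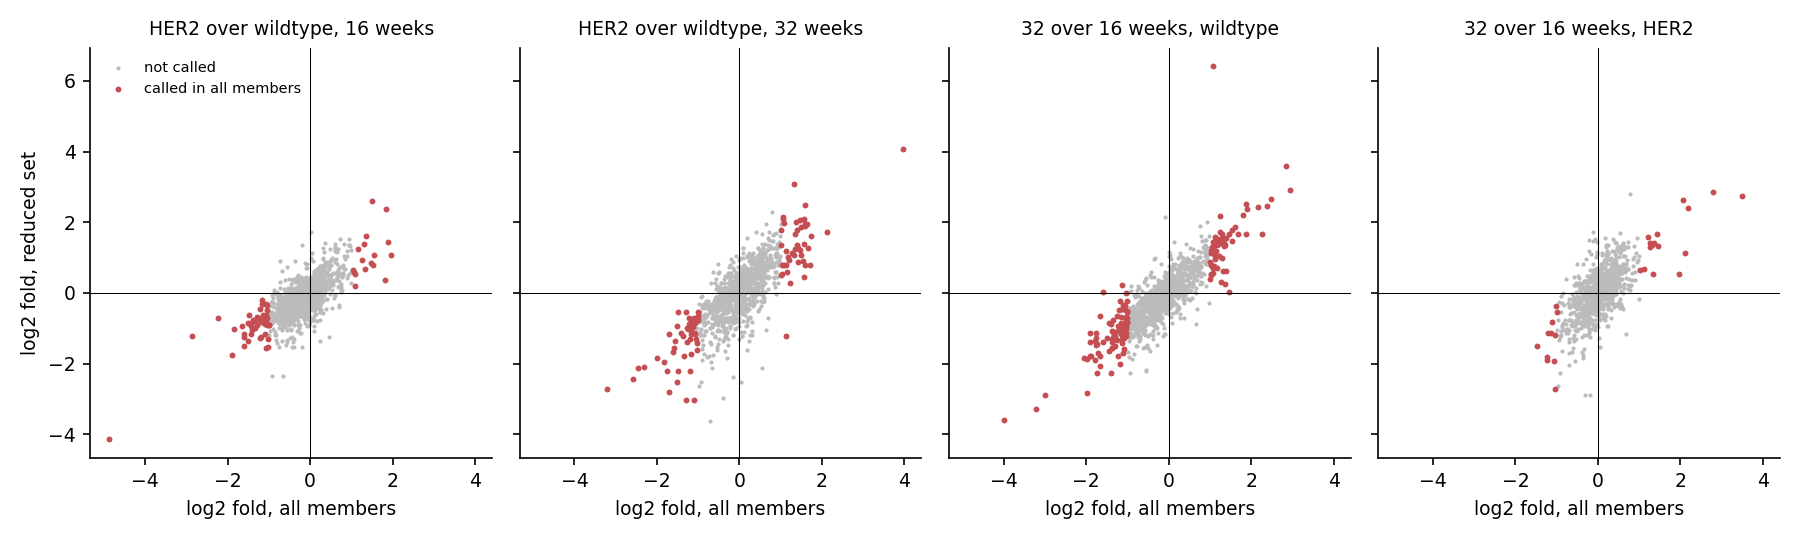
Log2 ratios over all T cells (horizontal) against log2 ratios in the reduced set (vertical), 1 panel per pair of libraries, for genes with enough counts to be tested in both; coloured points are genes called over all T cells. Of the 229, 156, 273 and 65 genes called over all T cells, 64, 89, 157 and 27 could be tested in the reduced set. Of those tested, 22, 46, 96 and 19 were called there in the same direction.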

How the data were processed

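The authors deposited 1 UMI count matrix per library, raw counts per gene and barcode, made with Cell Ranger 5.0.1 on mm10 per the submitters' processing notes; the matrix headers name Cell Ranger 4 software. All barcodes with a UMI were included, so cells were selected anew by the limits given above. Counts were summed over the T cells of a library and divided by their total to give CPM. A gene was called between summed groups at a 2-fold difference whose exact conditional binomial 95% interval excluded 1, among genes whose mean level over the pair reached 100 CPM. The calling was run on simulated counts drawn without variation between cells, as its interval assumes, so that run cannot show the effect of such variation. With 1 library per group no p-value was computed, and the calls compare libraries, not conditions.

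The members and gene lists were chosen with earlier results of these data known. The reduced set leaves out cells with 2 or more marker UMIs of other cell types. The rule planned at first also counted Ighm, which left 158 cells (70, 38, 31 and 19); Ighm was dropped from it, and the set was reported beside the full one, after values were seen, since T-lineage cells also carried Ighm UMIs. No doublet caller was run. Genes named for a comparison were the 8 highest and 8 lowest calls by the interval bound nearest to no change, found in at least 5 cells, without ribosomal, mitochondrial and variable receptor genes and markers of other cell types; listed genes were named besides. Thinning drew 1000 UMIs per cell, and no T cell was shallower. Near-identical copies were searched with BLAST 2.17.0 over the last 300 bases of 337 genes in GENCODE M21 transcripts, and 21 had a match of at least 90 bases at 95% identity. Python 3.11.15, numpy 2.4.6, scipy 1.17.1, pandas 2.3.3 and matplotlib 3.10.9 were used. The authors' average tables of alveolar macrophages were not used here. Intervals and floors of 3 counts cover counting error only.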

Additional observations from a re-analysis of the deposited data

Results flagged for a closer look

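Each gene below was called in opposite directions in a pair of comparisons that set the same contrast in the other age or genotype. Only genes of the fixed lists or named by rank were searched, without markers of other cell types. Opposite calls among all tested genes were not counted, so no share over them is given. The difference between the paired values was not tested, since each group is 1 library, and no cause was tested.

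For MMTV-HER2 over wildtype over all T cells, Cxcl12, an endothelial and stromal chemokine, was at 3.61 on the log2 scale at 16 weeks and at -3.04 at 32 weeks, with 81 against 10 and 8 against 59 UMIs. Dusp1, an immediate early phosphatase, was at 1.20 and -1.01. The opposite order was found for Gapdh, at -1.19 and 1.73, for Dut, an enzyme of DNA synthesis, at -1.76 and 1.54, and for the class II genes Cd74, at -1.33 and 1.43, and H2-Ab1, at -2.23 and 1.06. The deepest wildtype cell at 16 weeks held 676 of the 1183 UMIs of the cell cycle list, which includes Dut. The deepest MMTV-HER2 cell at 32 weeks held 198 of 545. At 16 weeks H2-Ab1 was at 0.10 in the reduced set, from 5 against 11 UMIs, and at 0.65 at stricter macrophage limits.

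For 32 over 16 weeks over all T cells, Cxcl12 was at 4.05 in wildtype and -2.60 in MMTV-HER2, Scn7a, a sodium channel gene, at 1.95 and -1.11, and Dut at -2.04 and 1.27. Cells with endothelial markers held 33.8% to 62.3% of the UMIs. Over all T cells Cxcl12 had 10, 81, 59 and 8 UMIs and Scn7a 29, 162, 40 and 45, and both had 0 UMIs in each library of the reduced set, which leaves out cells with markers of other cell types.

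In the reduced set 4 of the searched genes were called higher in MMTV-HER2 than in wildtype at 16 weeks and lower at 32 weeks. Hmgb2 was at 1.72 and -1.07, with 80 against 57 and 29 against 74 UMIs. Over all T cells it was at 0.019 at 16 weeks, from 183 against 272 UMIs, and not called. It is in the cell cycle list, of whose UMIs 3 cells held 64.6% in MMTV-HER2 at 16 weeks and 74.1% in wildtype at 32 weeks. Maf was at 1.67 and -1.16, Ms4a6b, a membrane protein of T cells, at 1.19 and -1.64, and S1pr1 at 1.07 and -1.84. The last of these rests on 25 against 28 and 6 against 26 UMIs.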

How the results depend on the processing

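Of 143 alternative values for shares and counts of calls, 103 stayed close to the reported value and 40 moved; causes were not tested. Summed list levels over all T cells were less stable: 96 alternative values stayed within the counting interval of the main value and 144 moved. They cover the naive, cytotoxic, tissue residence, thymocyte-type and cell cycle lists and the receptor and CD3 genes. No paired analysis was possible because each group is 1 library. No library could be left out for the same reason. The T cell share (1.69%, 1.19%, 0.936% and 0.427%) moved without cells with 3 or more cell cycle UMIs (0.606%, 0.644%, 0.546% and 0.107%). It moved without cells with other markers, Ighm counted, in the first 3 libraries (1.28%, 0.741% and 0.604%), and with Ighm not counted in MMTV-HER2 at 16 weeks (0.839%). At a limit of 5% mitochondrial UMIs it was 2.16% and 1.41% in wildtype. In wildtype at 32 weeks it was 0.628% from 2000 UMIs and 0.585% from 8 receptor and CD3 UMIs. The CD8 share without cells with 3 or more cell cycle UMIs was 12.1% in wildtype at 16 weeks and 0% in MMTV-HER2 at 32 weeks. That limit left out 59 of 92 and 21 of 28 T cells of these libraries, so the shares rest on few cells. Below, "without cell cycle UMIs" names the same limit.

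Counts of calls over all T cells (229, 156, 273 and 65, in the order of the report) depended on the minimum level: 102, 48, 113 and 15 at 200 CPM and 1247, 538, 1113 and 465 with no minimum. MMTV-HER2 over wildtype at 16 weeks moved to 347 at 5% mitochondrial UMIs, 98 without cell cycle UMIs, 88 without other markers (Ighm counted), 92 with Ighm not counted, 101 without NK-marked cells as well, 133 by the mean of each cell's CPM, 392 without mitochondrial and ribosomal genes, and 545 in CD4 cells alone. At 32 weeks, CD4 cells alone gave 236. Age in wildtype gave 166 without cell cycle UMIs, 427 without mitochondrial and ribosomal genes and 412 in CD8 cells alone. Age in MMTV-HER2 gave 135 at 5% mitochondrial UMIs, 102 in the reduced set, 144 without mitochondrial and ribosomal genes, 203 in CD8 cells and 177 in CD4 cells alone. The 271 calls against cells with thymocyte genes became 408 in the reduced set.

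Among named genes, 818 of the values over all T cells stayed within the interval, 166 moved and 35 reversed; in the reduced set the counts were 825, 88 and 17. Reversals over all T cells, on the log2 scale: at stricter macrophage limits, H2-Ab1 (0.65) and H2-Aa (0.47) for genotype at 16 weeks and H2-Ab1 (0.44) for age in wildtype. Without cell cycle UMIs, Scn7a (-0.53) at 16 weeks, Spp1 (-0.57) at 32 weeks and H2-Ab1 (0.14) for age in wildtype. Without other markers, Ighm counted, Spp1 for genotype at 32 weeks (-1.04) and for age in MMTV-HER2 (-0.42) and Apoe for age in wildtype (0.37); with Ighm not counted, Spp1 (-1.04 and -0.19), Apoe (0.18) and H2-Ab1 at 16 weeks (0.10). Without NK-marked cells, for age in MMTV-HER2, Ccl5 (-0.78), Klrd1 (-1.92) and Nkg7 (-0.014). With both left out, Ccl5 (-0.29), Klrd1 (-0.93), H2-Ab1 (0.15) at 16 weeks, Spp1 (-0.45) and H2afz (-0.84) at 32 weeks, and Apoe (0.22) for age in wildtype. In CD8 cells alone, Ppp1r18 (0.029) at 32 weeks, and for age in MMTV-HER2 Spp1 (-0.053), Ccl5 (-0.48), Nkg7 (-1.75), Lgals3 (-1.64), Hspa1b (0.95) and Tspan18 (1.17). In CD4 cells alone, Apoe (0.26) at 16 weeks, Igfbp4 (0.10) at 32 weeks, Apoe (2.24) and Gsn (0.24) for age in wildtype, and Tubb4b (-0.50) and Gsn (0.057) for age in MMTV-HER2.

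Reversals in the reduced set: S100a6 at 5% mitochondrial UMIs (-0.022) for genotype at 32 weeks; for age in MMTV-HER2, Klrd1 (-0.93) and Ccl5 (-0.30) from 8 receptor and CD3 UMIs, and Klrd1 (-0.93) and Ccl5 (-0.29) without NK-marked cells; Hmgb2 (-0.092) for age in wildtype with all T cells kept. In CD8 cells alone, Itm2a (0.75) at 16 weeks, Ctla2a (-2.50) at 32 weeks, and for age in MMTV-HER2 Ccl5 (-1.08), S100a6 (-2.17), Nkg7 (-0.85), BE692007 (0.15), Ifi27l2a (0.15) and Ms4a6b (0.89). In CD4 cells alone, Hmgb2 (-0.85) at 16 weeks, Il18r1 (-0.52) for age in wildtype and Ms4a6b (0.32) for age in MMTV-HER2. Tnfrsf4 and Satb1 did not reverse under the alternatives that could be scored, nor did Ccr9. A ratio without UMIs on a side was not scored, which holds for Tnfrsf4 in CD8 cells alone. In the reduced set of MMTV-HER2 at 32 weeks, values for CD4 or CD8 cells alone rest on 1 and 3 cells. The 19 to 77 cells of a reduced library, at 65221 to 269517 UMIs, limit the precision of each level, and the minimum of 100 CPM for a test was a choice.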

Other observations

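Summed levels of further gene lists were as follows. Regulatory genes, a list of 11, summed to 1432 CPM (interval 1293 to 1582), 715 CPM (569 to 888), 670 CPM (502 to 877) and 491 CPM (336 to 693) in the reduced set, with alveolar macrophages at 389 to 434 CPM. Foxp3 was not the source of the highest value, with 7, 5, 5 and 1 UMIs, while Ikzf2 had 107, 24, 13 and 8. Pdcd1, the inhibitory receptor PD-1, had 16, 2, 0 and 0 UMIs in 8, 1, 0 and 0 cells of the reduced set. Class I genes, a list of 10, summed to 6274, 8337, 5300 and 8280 CPM there, higher in MMTV-HER2 than in wildtype at each age, while alveolar macrophages were at 3835, 3964, 4643 and 3993 CPM. Type 2 genes summed to 226, 174, 354 and 230 CPM, with overlapping intervals.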
